A study of Homo sapiens with 6 samples.

Results

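Expression of 36 listed genes of cholesterol and fatty acid synthesis, with their regulators and the sterol transporters, was measured in RPMI-8402 cells, a widely used line from a human T-cell acute lymphoblastic leukaemia. A gene was taken where the RefSeq accession of a non-control probe mapped to its symbol, and the probe with the brightest mean signal stood for it. Of the 36 genes, 35 had a probe, among 19698 genes named on the array, and all 35 were well above background on all 6 arrays and were tested. FASN, the fatty acid synthase, had no matched probe and is not analysed here.

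The cells had received lentivirus with a control short hairpin RNA (shRNA), an shRNA against GATA3 (shGATA3) or one against TCF7, the gene that codes for TCF1 (shTCF1). EGFP-positive cells were sorted after 48 h, and RNA of each sample was hybridised to 1 array, with 2 arrays in each of the 3 groups. In the control and GATA3 vectors EGFP replaced the puromycin resistance gene, and the construct against TCF7 is not given in the sources used here. All 6 samples came from this 1 cell line, with 2 samples in each group. The labels do not say whether these were separate cultures, and the study's legends describe them as independent experiments. The p-values measure only the spread between these samples.

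Values are log2 intensities after variance-stabilizing normalization (VSN), and a gene was called higher or lower where limma gave an adjusted p below 0.05 over all 31131 tested probes. TCF7 was lower on the shTCF1 arrays by 1.31 on the log2 scale (adjusted p = 0.00394, limma), with 12.58 and 12.68 against 13.96 and 13.91 on the control arrays. GATA3 stood at 9.54 and 9.56 on the control arrays, and the arrays labelled shGATA3 read 9.46 and 9.55, a log2 difference of -0.05 (adjusted p = 0.795), so directions given for the arrays labelled shGATA3 refer to that label. Both control arrays lay in row 2 of the only slide and both hairpin groups in row 1, and the 75th percentile of signal was 269.6 and 287.4 on the control arrays and 165.3 to 178.8 on the other 4. Slide position and the step from control to either hairpin therefore cannot be told apart. Of 12 T-lineage markers, 11 were well above background on all arrays, and RAG1 was so on 2. Of 14 markers of other cell types, 13 had a probe, 8 were above background on all arrays and 4, among them EPCAM and CD22, on none. Their summed intensity was 1598 and 1690 on the control arrays, 1784 and 1828 under the shGATA3 label and 2049 and 2060 with shTCF1, against 92630 to 152600 for the T-lineage markers. The part of this difference in the results was not tested.

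Cells make cholesterol from acetyl-CoA through mevalonate and squalene. The enzymes of that route, like many of fatty acid synthesis, are targets of the transcription factors SREBP-1 and SREBP-2, the products of SREBF1 and SREBF2. When sterols are scarce, SCAP escorts SREBPs from the endoplasmic reticulum to the Golgi, where they are cut and released. When sterols are plentiful, INSIG1 and INSIG2 hold SCAP back, and oxysterols activate LXR, which drives the cholesterol exporters ABCA1 and ABCG1. T cells are known to raise this programme when they prepare to divide.

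On the arrays labelled shGATA3, most of the 35 genes had slightly lower values than on the control arrays, although few passed the test. INSIG1 fell and ABCA1 rose, while 26 of the 35 log2 differences were below 0 (74.3%, against 51.4% of all tested probes). The median of the 35 differences was -0.20 on the log2 scale, beside -0.01 over all tested probes. For 22 genes both arrays with that label read below both control arrays, a pattern held by 31.1% of all tested probes, and 5 were higher on both, against 29.1% of all probes. By limma, 1 gene was called lower, where 3.96% of all tested probes were, and 1 was called higher, where 2.88% were. At an unadjusted p below 0.05, 11 genes were lower and 3 higher. Of all tested probes, 14.5% were lower at that threshold, 3745 of 31131 higher and 26.5% in either direction. Under the alternatives described below, the 11 became 5 with 75th percentile scaling or a replicate block and 7 with the compared groups only. They became 14 with normexp or an intensity trend, and the matching shares over all probes were not computed. RNA came from whole sorted samples, so fewer cells that express a gene and less RNA per cell cannot be told apart.

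On the shTCF1 arrays the genes moved in both directions. FDFT1, LSS and FADS2 rose, TM7SF2 and INSIG2 fell, and the median of the 35 log2 differences from control was -0.03, beside -0.02 over all tested probes, and it turned to 0.02 with 75th percentile scaling. The 3 genes called higher compare with 7.21% of all tested probes, and the 2 called lower with 9.73%. Both shTCF1 arrays lay above both control arrays for 12 genes and below both for 10, where the shares over all probes were 31.8% and 35.1%. At an unadjusted p below 0.05, 6 were higher and 5 lower, against 15.8% and 19.3% of all tested probes.

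**Figure D1:**
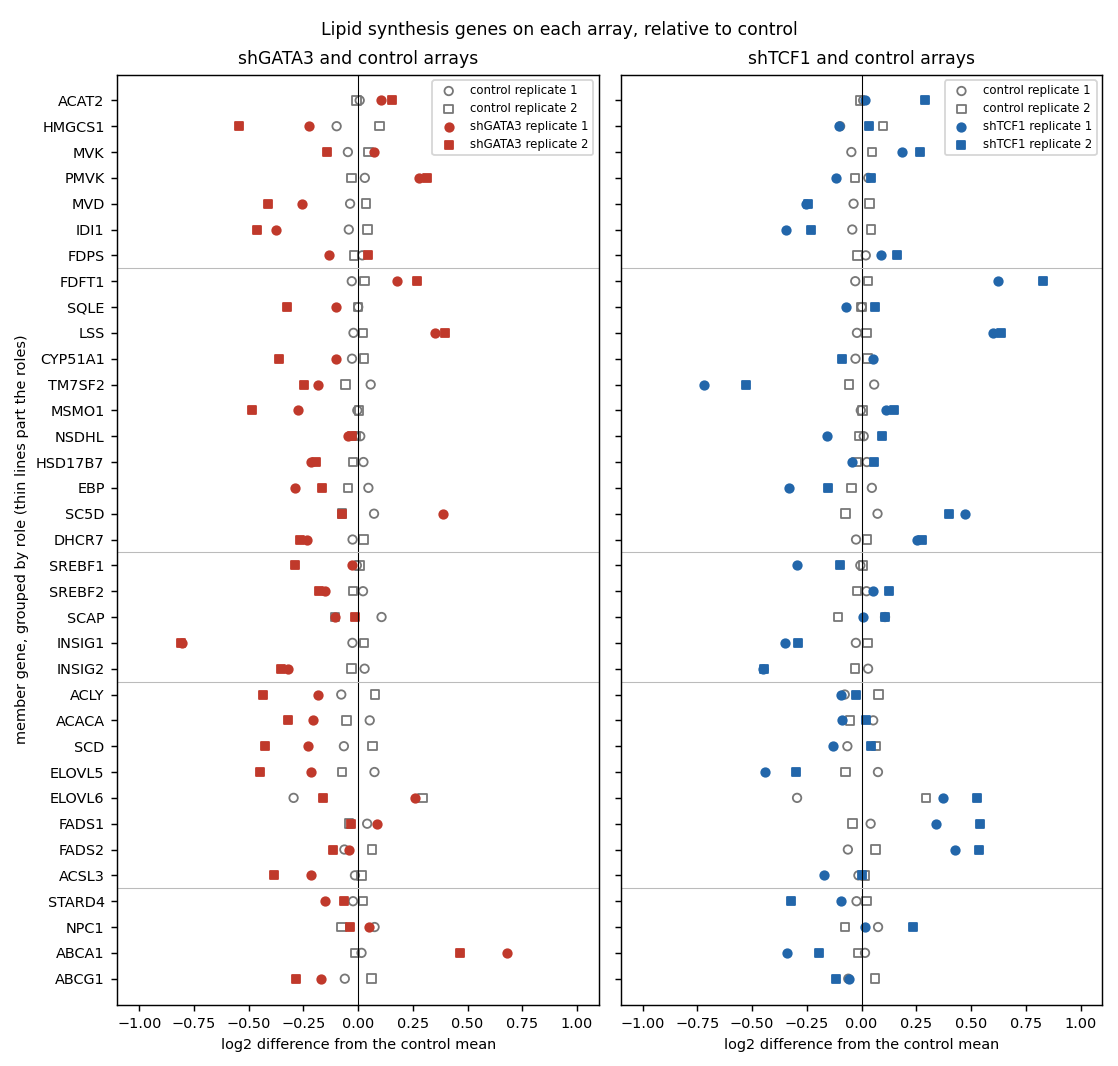
Each row is 1 of the 35 genes, and the x axis gives the log2 difference of each array from the mean of the 2 control arrays. Open grey symbols are control arrays, red symbols arrays labelled shGATA3 and blue symbols shTCF1 arrays, with circles for replicate 1 and squares for replicate 2. Red symbols lie left of both open symbols for 22 genes, and blue symbols lie on both sides.

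The 2 arrays of a hairpin group did not deviate equally. Replicate 1 and replicate 2 labelled shGATA3 were below both control arrays for 23 and 25 of the 35 genes (41.5% and 44.0% of all tested probes), and the median differences from the control mean were -0.15 and -0.19. For shTCF1, replicate 1 was below both control arrays for 19 genes and replicate 2 for 12 (46.2% and 43.0% of all tested probes), with medians of -0.07 and 0.04. The median for shTCF1 thus had opposite signs on its 2 arrays.

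The lowest difference of the list was that of a regulator. INSIG1, which retains SCAP in the endoplasmic reticulum and is itself a target of SREBPs, was 12.77 and 12.83 on the control arrays, 11.997 and 11.991 under the shGATA3 label and 12.45 and 12.51 with shTCF1. The 3 groups did not overlap, with control highest and the label shGATA3 lowest. Against control, INSIG1 was 1.75-fold lower on the arrays labelled shGATA3 (log2 difference -0.81 ± 0.10 SE, adjusted p = 0.0120, limma). On the shTCF1 arrays its log2 difference of -0.32 did not pass (adjusted p = 0.0697). The call for the label shGATA3 was lost when either control array or replicate 2 of that label was left out, each of which leaves 1 array in a group.

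INSIG2, the second anchor of SCAP, was 7.99 and 7.93 on the control arrays, 7.64 and 7.61 under the shGATA3 label and 7.51 and 7.52 with shTCF1. It was lower than control on all 4 hairpin arrays, and the fall passed for shTCF1 (-0.45 ± 0.09 SE, adjusted p = 0.0306) but not for the label shGATA3 (-0.34, adjusted p = 0.0926). A second INSIG2 probe read 5.61 on shTCF1 replicate 2 and 7.41 to 7.68 on the other 5 arrays, and was not called (adjusted p = 0.196 for shTCF1).

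SREBF2 and SCAP differed less from control than INSIG1 and INSIG2. SREBF2, whose product chiefly drives the cholesterol route, was 10.21 and 10.17 on the control arrays, 10.04 and 10.01 under the shGATA3 label and 10.24 and 10.31 with shTCF1. The 3 groups did not overlap, with shTCF1 highest, but neither difference from control passed (log2 -0.17, adjusted p = 0.323, and 0.09, adjusted p = 0.553). SCAP was 10.97 and 10.75 on the control arrays, 10.75 and 10.84 under the shGATA3 label and 10.87 and 10.97 with shTCF1, and control overlapped both hairpin groups.

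SREBF1, the SREBP gene more closely tied to fatty acid synthesis, was read by a pair of probes that disagreed. The brighter gave 14.39 and 14.41 on the control arrays, 14.37 and 14.11 under the shGATA3 label and 14.10 and 14.30 with shTCF1, with no call. The dimmer gave 8.08 and 8.11, then 8.49 and 8.47, then 8.82 and 8.81, and was called higher for shTCF1 (0.72, adjusted p = 0.00983). For the label shGATA3 the brighter gave -0.16 and the dimmer 0.39 (adjusted p = 0.484 and 0.0647, limma). The direction of SREBF1 therefore depended on the probe for both hairpins.

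**Figure D2:**
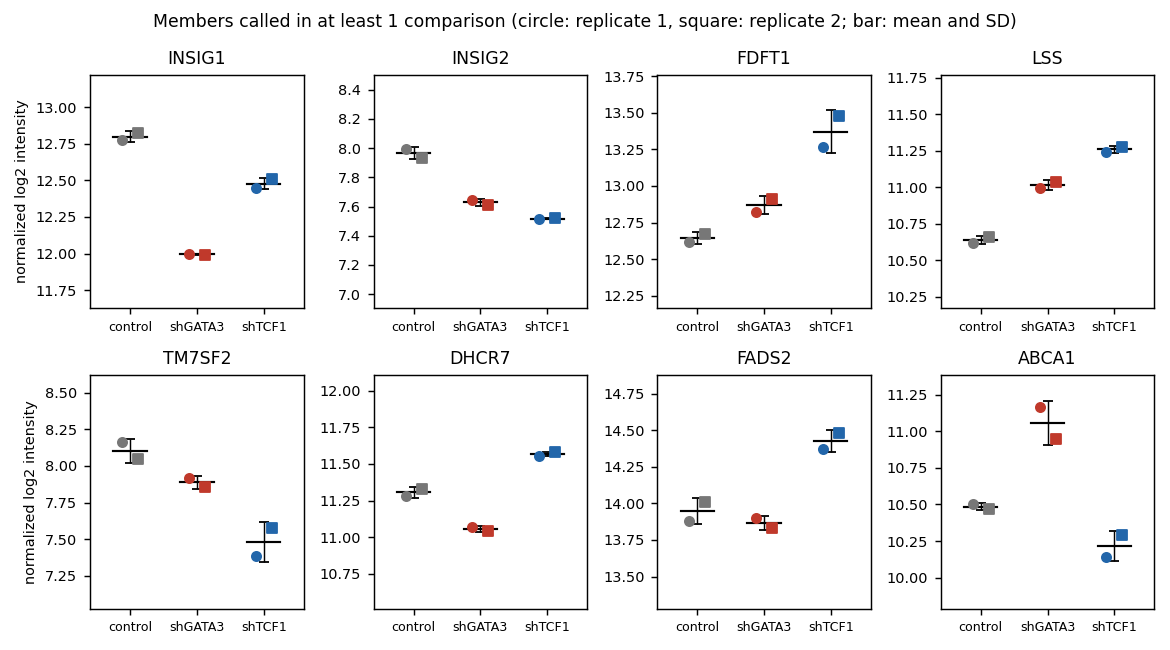
Normalized log2 intensity of the 8 genes called in at least 1 comparison, by group, on axes that all span the same range. Circles are replicate 1, squares replicate 2, horizontal bars the group mean and error bars the SD (n = 2). INSIG1 and DHCR7 are lowest on the arrays labelled shGATA3, ABCA1 is highest there, and FDFT1, LSS and FADS2 are highest on the shTCF1 arrays.

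Promoter sequence of the genes was read from RefSeq windows on GRCh38.p14, which run from 250 bases before the annotated start to 50 after it. A window was found for 31 of the 36 genes (41 windows, since some genes have several starts). Each motif was searched by its letters on both strands, and a match is a description of these letters. CCAAT, the box bound by NF-Y, a factor that works together with SREBPs, was in 63.4% of the 41 windows and in 34.6% of all 35116 windows. The GC box GGGCGG, bound by Sp1, was in 87.8% and 45%. The sterol regulatory element TCACNCCAC was in 1 window, that of SREBF2 (2.44%, against 1.13% of all windows). The GATA site AGATAA was in 2 windows, of FDPS and CYP51A1 (4.88%, against 10.3%), and the TCF site CTTTGAT was in none (2.62% of all windows). Overlaps between motifs were not removed.

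The windows of 4 genes are shown because INSIG1 and LSS had the lowest adjusted p against control among regulators and enzymes with a window, SREBF2 held the sterol regulatory element, and ABCA1 moved the opposite way to INSIG1 on the arrays labelled shGATA3. Capitals mark CCAAT or its reverse complement in INSIG1 (chr7:155297628-155297927, plus strand), LSS (chr21:46228725-46229024, minus strand) and SREBF2 (chr22:41832855-41833154, plus strand), the sterol regulatory element as well in SREBF2, and the GC box in ABCA1 (chr9:104928106-104928405, minus strand), each read 5′ to 3′ along the gene.
INSIG1: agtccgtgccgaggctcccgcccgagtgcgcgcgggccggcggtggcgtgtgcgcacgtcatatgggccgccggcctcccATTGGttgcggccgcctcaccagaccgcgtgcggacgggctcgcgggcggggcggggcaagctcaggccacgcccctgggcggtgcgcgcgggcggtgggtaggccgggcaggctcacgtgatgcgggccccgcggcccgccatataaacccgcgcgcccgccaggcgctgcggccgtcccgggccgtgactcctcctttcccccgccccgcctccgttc
LSS: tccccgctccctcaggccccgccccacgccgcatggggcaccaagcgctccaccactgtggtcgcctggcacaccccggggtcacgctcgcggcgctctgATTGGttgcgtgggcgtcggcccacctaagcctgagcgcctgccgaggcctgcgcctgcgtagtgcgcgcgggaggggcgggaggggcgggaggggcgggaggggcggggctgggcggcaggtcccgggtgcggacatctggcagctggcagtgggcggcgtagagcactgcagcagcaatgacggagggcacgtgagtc
SREBF2: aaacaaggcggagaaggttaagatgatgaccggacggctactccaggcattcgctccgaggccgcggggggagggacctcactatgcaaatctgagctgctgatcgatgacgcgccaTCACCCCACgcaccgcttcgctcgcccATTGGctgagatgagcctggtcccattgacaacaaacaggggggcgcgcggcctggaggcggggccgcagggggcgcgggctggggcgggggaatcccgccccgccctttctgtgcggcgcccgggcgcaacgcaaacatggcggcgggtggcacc
ABCA1: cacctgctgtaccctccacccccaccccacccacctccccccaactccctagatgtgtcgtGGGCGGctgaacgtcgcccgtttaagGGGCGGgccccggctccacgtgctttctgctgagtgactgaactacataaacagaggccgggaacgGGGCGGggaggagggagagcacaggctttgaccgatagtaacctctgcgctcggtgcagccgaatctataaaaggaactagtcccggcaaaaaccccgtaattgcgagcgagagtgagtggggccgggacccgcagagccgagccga
The box lay 170 bases before the start of INSIG1 and 150 before that of LSS, and in SREBF2 the sterol regulatory element lay 133 and the CCAAT box 106 bases before the start.

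None of the 7 genes of the mevalonate arm was called in any comparison. By limma, 3 were lower and 1 higher on the arrays labelled shGATA3 at an unadjusted p below 0.05 (14.5% of all tested probes lower and 26.5% in either direction), 1 was lower on the shTCF1 arrays (19.3%) and 1 was higher with the label shGATA3 than with shTCF1 (12.4%). The largest differences were those of IDI1, the isomerase that makes dimethylallyl diphosphate, which was 10.28 and 10.37 on the control arrays, 9.95 and 9.86 under the shGATA3 label and 9.98 and 10.09 with shTCF1. IDI1 was below both control arrays on all 4 hairpin arrays (log2 differences of -0.42 and -0.29, adjusted p = 0.0710 and 0.112). HMGCS1, which condenses acetoacetyl-CoA to HMG-CoA, gave -0.38 on the arrays labelled shGATA3 (adjusted p = 0.170) and -0.03 on the shTCF1 arrays. MVD, the decarboxylase that yields isopentenyl diphosphate, gave -0.33 and -0.25. PMVK, the phosphomevalonate kinase, had a positive value of 0.30 for the label shGATA3 (adjusted p = 0.146), and ACAT2, MVK and FDPS lay between -0.05 and 0.13 there and between 0.13 and 0.23 for shTCF1.

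Of the 11 genes from squalene to cholesterol, 2 were called higher and 1 lower for shTCF1, against 7.21% and 9.73% of all tested probes. FDFT1, the squalene synthase that commits farnesyl diphosphate to sterols, was 12.62 and 12.67 on the control arrays, 12.82 and 12.91 under the shGATA3 label and 13.27 and 13.48 with shTCF1. It rose 1.66-fold on the shTCF1 arrays (log2 0.73 ± 0.11 SE, adjusted p = 0.0149, limma), and was above control on both arrays labelled shGATA3 without passing (0.22, adjusted p = 0.273). LSS, the lanosterol synthase, was 10.62 and 10.66 on the control arrays, 10.99 and 11.04 under the shGATA3 label and 11.24 and 11.28 with shTCF1. The groups of LSS did not overlap, and the rise was 1.54-fold for shTCF1 (0.62 ± 0.10 SE, adjusted p = 0.0141), with 0.38 for the label shGATA3 (adjusted p = 0.0728). A dimmer second LSS probe gave 0.12 for shTCF1 (adjusted p = 0.695), and with the mean of both probes the LSS call was lost. For the label shGATA3 that second probe gave -0.28 (adjusted p = 0.420), so the direction of LSS under this label depended on the probe.

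TM7SF2, a sterol C14 reductase, went the other way. It was 8.16 and 8.05 on the control arrays, 7.92 and 7.86 under the shGATA3 label and 7.38 and 7.57 with shTCF1, and fell 1.54-fold for shTCF1 (-0.62 ± 0.11 SE, adjusted p = 0.0215). The calls of FDFT1, LSS and TM7SF2 were lost without either control array, and also without shTCF1 replicate 2 for FDFT1, replicate 1 for TM7SF2 and either for LSS.

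DHCR7, which makes cholesterol from 7-dehydrocholesterol, was 11.28 and 11.33 on the control arrays, 11.07 and 11.04 under the shGATA3 label and 11.56 and 11.58 with shTCF1. DHCR7 lay below control under the first hairpin and above it under the second (-0.25 and 0.26, adjusted p = 0.166 and 0.108), and neither passed.

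The other 7 genes of this stretch were not called in any comparison. On the arrays labelled shGATA3, none of the 11 genes was called by limma, with 2 lower and 1 higher at an unadjusted p below 0.05 (14.5% of all tested probes lower and 26.5% in either direction), and 8 lay below both control arrays (31.1% of all). MSMO1, the methylsterol monooxygenase, gave -0.38 there (adjusted p = 0.0997) and 0.13 for shTCF1. SQLE, the squalene epoxidase, CYP51A1, the lanosterol demethylase, and EBP, the sterol isomerase, gave -0.21, -0.23 and -0.23 for the label shGATA3, and 0.00, -0.02 and -0.24 for shTCF1. SC5D, the sterol C5 desaturase, gave 0.16 and 0.44, the latter with an adjusted p of 0.129. NSDHL, a dehydrogenase of C4 demethylation, gave -0.04 and -0.03. HSD17B7, which acts at the same step, was read by 3 probes, whose log2 differences from control lay between -0.20 and 0.07, and its near-identical pseudogene copy makes these values uncertain.

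Among the 8 genes of fatty acid synthesis with a probe, FADS2, the desaturase of the first step to long polyunsaturated fatty acids, was the only one whose brightest probe was called. It was 13.88 and 14.01 on the control arrays, 13.90 and 13.83 under the shGATA3 label and 14.37 and 14.48 with shTCF1. FADS2 rose 1.40-fold for shTCF1 (0.48 ± 0.11 SE, adjusted p = 0.0341) and overlapped control for the label shGATA3. The FADS2 call, like that of INSIG2, was lost without any 1 of the control or shTCF1 arrays, with no filter on dim probes and with the replicate block (adjusted p = 0.0571 for FADS2 and 0.0560 for INSIG2). That of FADS2 was also lost with quantile normalization (0.38, adjusted p = 0.0643), and that of INSIG2 with the mean of its probes (adjusted p = 0.110). FADS1, the neighbour of FADS2 on chromosome 11 and the next desaturase of the route, gave 0.44 for shTCF1 (adjusted p = 0.0535) and 0.03 for the label shGATA3.

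The label shGATA3 had no call among these 8 genes by limma, with 4 lower at an unadjusted p below 0.05 and none higher (14.5% of all tested probes lower and 26.5% in either direction). ACLY, which makes cytosolic acetyl-CoA, ACACA, which makes malonyl-CoA, SCD, the stearoyl-CoA desaturase, ELOVL5, an elongase, and ACSL3, an acyl-CoA synthetase, were each below both control arrays on both arrays of that label (log2 differences of -0.33 to -0.26). Of all tested probes, 31.1% lay below both control arrays in this way. A second ELOVL5 probe gave 0.05 for the label shGATA3 and overlapped control. For shTCF1, ACLY, ACACA, SCD and ACSL3 lay between -0.08 and -0.03, and ELOVL5 gave -0.37 (adjusted p = 0.101). The dimmer of a pair of ACACA probes was called lower for shTCF1 (-0.46, adjusted p = 0.0473), where the brighter gave -0.03. ELOVL6, an elongase of saturated chains, had the widest spread between control arrays, 7.01 and 7.59, and no call.

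ABCA1, which exports cholesterol to apolipoprotein A-I, was the only gene of the list called higher on the arrays labelled shGATA3. It was 10.50 and 10.47 on the control arrays, 11.17 and 10.95 under the shGATA3 label and 10.14 and 10.29 with shTCF1. The 3 groups did not overlap, with the label shGATA3 1.49-fold above control (0.57 ± 0.12 SE, adjusted p = 0.0481) and shTCF1 below control without passing (-0.27, adjusted p = 0.169). A second ABCA1 probe gave 0.81 for the label shGATA3 (adjusted p = 0.0221). The call of the brighter probe against control was lost when any 1 of the 6 arrays was left out. ABCG1, another exporter, gave -0.23 and -0.09, STARD4, a cytosolic sterol carrier, -0.11 and -0.21, and NPC1, which lets cholesterol leave lysosomes, 0.01 and 0.13, with no call. Of 4 genes outside the list that code for LXR or are its targets, 3 were below control for the label shGATA3 and 1 above. Among them the LXR target MYLIP was called lower (-0.44, adjusted p = 0.0491, limma), a call not examined under the alternatives. A part of LXR in the ABCA1 rise was not tested.

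Since both comparisons with control rest on the same 2 control arrays, the hairpin groups were also compared directly. The arrays labelled shGATA3 lay below both shTCF1 arrays for 24 of the 35 genes and above both for 4, where the shares over all tested probes were 26.1% and 25.9%. The median log2 difference was -0.21, beside 0.00 over all tested probes, and 27 differences were below 0 (77.1%, against 50.6%). Calls numbered 3 lower (2.60% of all tested probes) and 1 higher (3.58%), and at an unadjusted p below 0.05, 8 were lower (11.0%) and 3 higher (12.4%).

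DHCR7 was lower with the label shGATA3 than with shTCF1 by 0.51 on the log2 scale (adjusted p = 0.0359, limma), FADS2 by 0.56 (adjusted p = 0.0391) and INSIG1 by 0.48 (adjusted p = 0.0427). ABCA1 was 1.79-fold higher (log2 0.84 ± 0.12 SE, adjusted p = 0.0166), and its second probe gave 1.06 (adjusted p = 0.00864). MSMO1 and FDFT1 gave -0.51 and -0.50 and missed the threshold (adjusted p = 0.0568 and 0.0629). The 95% interval for TM7SF2, 0.13 to 0.69, and that for INSIG2, -0.12 to 0.34, both with no call, bound how far the hairpin groups differed for these genes. The 3 lower calls were lost when any 1 array was left out, a control array included, and the ABCA1 call was lost without replicate 1 of the label shGATA3 or either shTCF1 array.

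**Figure D3:**
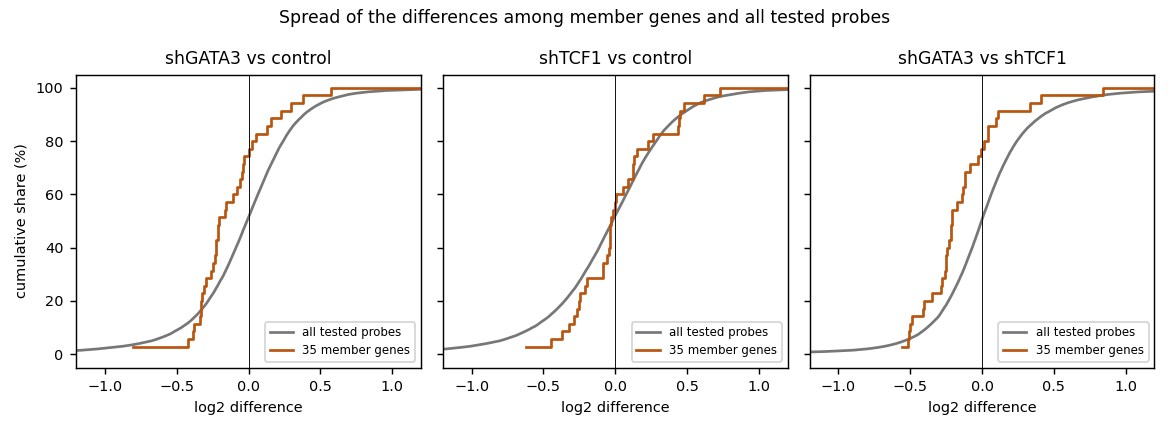
Cumulative share in percent (y axis) of the 35 genes (orange steps) and of all tested probes (grey line) up to each log2 difference (x axis), for the label shGATA3 against control, shTCF1 against control and the label shGATA3 against shTCF1. The orange steps lie left of the grey line over most of their range in the outer panels, with medians of -0.20 and -0.21, and cross it in the middle one.

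A further 45 genes of lipid metabolism outside the list were examined in the same way, and 43 were tested. On the arrays labelled shGATA3, 6 were called lower and none higher by limma, against 3.96% and 2.88% of all tested probes. At an unadjusted p below 0.05, 13 were lower and 3 higher (14.5% lower and 26.5% in either direction). The 32, the 6 and the 13 include HACD2, and the 32 and the 13 include ELOVL7. Both of these genes passed the probe filter only through the control group, where they were high, so these counts carry no weight for them. ELOVL4, an elongase of very long chains, was 7.83 and 7.89 on the control arrays, 7.04 and 6.94 under the shGATA3 label and 6.93 and 6.95 with shTCF1. It fell by 0.87 on the log2 scale for the label shGATA3 (adjusted p = 0.0105). FADS3, a desaturase related to FADS1 and FADS2, was 6.54 and 6.32 on the control arrays and 5.85 and 5.78 under that label (-0.61, adjusted p = 0.0498). The FADS3 call was lost with each other scaling of the scanner values (adjusted p = 0.0604 to 0.0789) and was kept in 3 of 17 alternatives. HACD2, a dehydratase of fatty acid elongation, was well above background only on the control arrays and so passed the probe filter only through the group where it was high. It is given as a bound, at least 1.40-fold lower, with no weight on its call.

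For shTCF1, 6 of these 43 genes were called lower and none higher by limma (9.73% and 7.21% of all tested probes), with 13 lower and 2 higher at an unadjusted p below 0.05 (19.3% and 15.8%). Differences below 0, HACD2 and ELOVL7 among them, were 69.8% for shTCF1 against control (52.1% of all tested probes). Between the hairpin groups they were 51.2% (50.6% of all). ELOVL4 fell by 0.92 (adjusted p = 0.00712). FADS3 was 5.79 and 6.01 with shTCF1 and was called lower here too (-0.53, adjusted p = 0.0445, limma). That call was lost with 75th percentile scaling and quantile normalization (adjusted p = 0.0572 and 0.0738). MBTPS2, the site-2 protease that releases SREBPs, was 7.04 and 6.96 on the control arrays and 6.27 and 6.23 with shTCF1 (-0.75, adjusted p = 0.0251). DHDDS, which builds the chain of dolichol, was 7.36 and 7.07 on the control arrays and 6.68 and 6.63 with shTCF1 (-0.57, adjusted p = 0.0453), a call kept in 2 of 17 alternatives and with no other scaling. Between the hairpin groups only TMEM97, an NPC1-binding protein of sterol transport, was called, with 10.45 and 10.36 under the shGATA3 label and 11.00 and 11.11 with shTCF1 (-0.65, adjusted p = 0.0286). Among the calls of ELOVL4, FADS3, MBTPS2, DHDDS and TMEM97 in these comparisons, that of ELOVL4 for shTCF1 was the only one kept in each fit that left out 1 array.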

How the data were processed

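Per the file headers, the deposited intensity values were the background-subtracted and detrended processed signals of Agilent Feature Extraction 10.7.1.1 (version 9.1 in the submitters' processing notes), with no scaling between arrays. The deposited background flags (unit other) marked spots well above background, coded 0 or 1, and the deposited spot and background medians (intensity) served the normexp alternative. The authors used VSN and limma and deposited a log2 value matrix of the same arrays. Its scale was taken as log2 with array medians of 4.94 to 5.11, and its centring is unknown. It was used only as an alternative, since its control replicate 2 column correlated at 0.760 with that array, against 0.988 to 0.999 for others. The columns of control replicate 1 and of replicates 1 and 2 labelled shGATA3 correlated best with the other array of their group. These correlations were 0.9989, 0.9988 and 0.9882, against 0.9932, 0.9926 and 0.9878 with their own arrays. The matrix held no columns of the authors' comparisons, and 0 columns were left unused.

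The 6 arrays were grouped by their titles. Spots of one probe were averaged (57176 probes), control spots and outlier-flagged spots were left out, which removed 71 probes with no unflagged spot on some array, and 31131 probes were tested, those that were flagged well above background on each array of 1 group or more. VSN was written anew in R 4.3.3 (5 strata, trimming quantile 0.9, 7 iterations), and limma 3.58.1 fitted the 3 groups together with Benjamini-Hochberg adjustment over all tested probes. VSN compresses differences of dim probes. Fits were tested on simulated data. With 2 arrays a group, the smallest exact two-sided permutation p is 0.333, and the number of arrays limits the precision. The replicate numbers did not pair the samples (correlations of same-numbered deviations -0.04, -0.01 and 0.05). RefSeq symbols came from a table of accessions, and 25681 probes were named.

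The genes and lists were chosen with earlier results of these data known. Named with values on every array were genes called in any comparison and the 5 regulators. Among the other lipid genes, those with the 3 largest called log2 differences of each comparison were named, HACD2 as a bound. Their values are given in the groups compared, and FADS3 is given for shTCF1 as well. MYLIP is named besides, next to ABCA1. Alternatives tried were other scalings, background correction, probe filters, an intensity trend, the compared groups only, a replicate block, the mean of a gene's probes, the deposited matrix and leaving out each array. Figures were drawn with matplotlib 3.10.9.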

Additional observations from a re-analysis of the deposited data

How the results depend on the processing

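Among 2088 values of single genes under alternatives, 1846 kept their side of the threshold, with the same direction or a shift below the reported SE. Another 161 lost the call and 35 gained one. A further 39 uncalled values changed sign with a shift of at least that SE, and 7 called values reversed. All 7 reversals arose with the deposited matrix, whose control replicate 2 column is in doubt: 2.48 for INSIG1, 1.75 for ELOVL4 and 0.31 for FADS3 with the label shGATA3 against control, and 0.026 for TM7SF2, 1.03 for INSIG2, 1.72 for ELOVL4 and 0.30 for FADS3 with shTCF1 against control. That matrix gave 0 calls among the 35 genes by limma (unadjusted p below 0.05 for 3, 1 and 3 genes in the comparisons of the label shGATA3 with control, shTCF1 with control and the 2 hairpins) and medians of 0.054 and 0.10 against control. Without that column, an alternative chosen after seeing the data, none of the 7 was reversed, calls were still 0 (unadjusted p below 0.05 for 12, 5 and 13 genes), and the medians were -0.26 and -0.16. The cause was not tested. The matching shares of all tested probes with this matrix were not computed.

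Calls lower and higher are given next in that order, for the label shGATA3 against control (1 and 1 as reported), shTCF1 against control (2 and 3) and the label shGATA3 against shTCF1 (3 and 1). The share of all tested probes called under each alternative was not computed. A change in these counts therefore cannot be read as particular to the 35 genes. With normexp they were 2 and 2, 5 and 6, and 6 and 3, and with an intensity trend 2 and 2, 5 and 5, and 5 and 2. With no filter on dim probes they were 1 and 0, 0 and 2, and 0 and 0. With the compared groups only they were 1 and 0, 2 and 3, and 0 and 1. With the replicate block, which rests on a number only, they were 1 and 0, 1 and 2, and 0 and 1. Between the hairpins, calls lower were 1 with 75th percentile scaling and 5 with probes above background on all arrays, and for shTCF1 they were 1 with the mean of a gene's probes. Leaving out 1 array, with the lone array assumed to vary like the other groups, gave 0 to 1 lower and 0 higher for the label shGATA3, 0 to 2 lower and 0 to 3 higher for shTCF1, and 0 lower and 0 to 1 higher between the hairpins. Medians then ranged from -0.20 to -0.15, from -0.071 to 0.043 and from -0.24 to -0.12. No scaling of the scanner values moved the median of all probes by over 0.1. A slide or scan block was not run, since all arrays shared 1 slide and 1 scan. FADS1, not called as reported, was called for shTCF1 in 4 of the alternatives. It was not the only such gene. For shTCF1 against control, TMEM97 gained a call in 5 and INSIG1 in 3 (quantile normalization, normexp and an intensity trend). Between the hairpins FDFT1 gained one in 4. Each other gained call, such as those of IDI1 and LSS for the label shGATA3, was seen in 1 or 2. All 35 genes were flagged well above background on all arrays. The dimmest were MSMO1 (5.58 to 6.22) and SC5D (5.635 to 6.18), and VSN may have compressed their differences.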
